A study of Mus musculus with 6 samples.

Results

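The 10 megakaryocyte and platelet genes Pf4, Ppbp, Itga2b, Itgb3, Gp1ba, Gp1bb, Gp9, Vwf, Selp and Nbeal2 were described in bone marrow with and without Cbx2. They were chosen by gene name, for what they are known to do, though with earlier results of these data known. All 10 were found among the 22838 genes of the deposited table. The marrow came from the tibia and femur of mice aged 3 weeks on a mixed 129/C57BL/6 strain, 3 wild-type and 3 Cbx2-/- animals, 1 library each. The labels name no treatment and no allele besides Cbx2, and do not say which part of Cbx2 was deleted. The Cbx2-/- group was much smaller in body, with a mean weight of 4.0 g against 12.3 g in the wild-type group, so genotype and body size cannot be told apart. Cbx2 encodes a chromodomain subunit of Polycomb repressive complex 1.

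Megakaryocytes are the large marrow cells that shed platelets into the sinusoids. They fill alpha granules with chemokines and adhesion proteins and place on the surface the receptors with which platelets stick to a damaged vessel wall. The glycoprotein Ib-IX-V complex catches von Willebrand factor, and the integrin of Itga2b and Itgb3 then binds fibrinogen and holds platelets together. Transcription factors of the GATA and ETS families and Nfe2 drive this programme, and GATA factors are shared with the red cell lineage.

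Levels are given in FPKM, that is, fragments per transcript length and per total of mapped fragments, so levels of different genes can be set side by side. A difference is that of mean log2(FPKM + 1), Cbx2-/- minus wild-type, with its 95% interval from limma, and a gene was called where the adjusted p over 12006 tested genes was under 0.05. All 10 genes had enough signal to be tested. In these bulk samples, changes in megakaryocyte number, in RNA per megakaryocyte and in the other cells of the marrow cannot be told apart. The summed FPKM of a library was 599601 to 741192, and the low values gave a sequencing depth of 0.91 to 1.22 relative to wild-type replicate 1. Cbx2 itself was at 2.90, 3.83 and 2.75 FPKM in wild-type and at 2.11, 1.87 and 1.88 FPKM in Cbx2-/- marrow (adjusted p = 0.0558, limma), lower in 3 of 3 Cbx2-/- libraries. Since the deleted part is not given, the remaining reads do not check the labels fully. The tissue label was checked against marrow markers. The summed FPKM of 12 neutrophil markers was 39814 to 44758 in wild-type and 56756 to 87956 in Cbx2-/- libraries, and that of 14 erythroid markers was 3530 to 4161 and 1571 to 2260. Skeletal muscle transcripts stood out in Cbx2-/- replicates 1 and 2, with 397 and 449 FPKM summed over 9 markers against 13.6 FPKM in replicate 3 and 23.2 to 34.8 FPKM in wild-type libraries. Among them, Acta1 was at 1.06 ± 0.363 and 71.2 ± 65.8 FPKM and Tnnt3 at 1.06 ± 0.675 and 55.5 ± 47.5 FPKM (SD, n = 3 each), neither called.

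The promoter windows of the genes on which the results turn are shown first, so that shared letters can be set beside the direction of each gene. RefSeq windows (GRCm38.p6) matched 8 of the 10 genes, all but Itgb3 and Vwf. The 200 bases before the start of transcription are given 5′ to 3′ on the gene's strand for Nbeal2 (chr9:110654162-110654361, minus strand) and Selp (chr1:164115064-164115263, plus strand), which rose, for Pf4 (chr5:90772235-90772434, plus strand) and Gp9 (chr6:87777870-87778069, plus strand), which had lower means, and for Itga2b (chr11:102469884-102470083, minus strand), which had similar means in both genotypes. Capitals mark AGGAAG or its reverse complement CTTCCT, a hexamer with the core that ETS factors such as Fli1 bind.
Nbeal2: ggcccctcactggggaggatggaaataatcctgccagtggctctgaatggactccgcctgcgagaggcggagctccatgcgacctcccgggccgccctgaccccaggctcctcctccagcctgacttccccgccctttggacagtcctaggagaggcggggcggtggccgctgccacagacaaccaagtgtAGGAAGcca
Selp: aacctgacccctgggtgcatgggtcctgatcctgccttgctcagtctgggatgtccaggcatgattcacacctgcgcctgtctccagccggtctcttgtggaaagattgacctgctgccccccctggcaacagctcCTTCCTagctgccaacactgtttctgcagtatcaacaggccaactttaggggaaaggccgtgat
Pf4: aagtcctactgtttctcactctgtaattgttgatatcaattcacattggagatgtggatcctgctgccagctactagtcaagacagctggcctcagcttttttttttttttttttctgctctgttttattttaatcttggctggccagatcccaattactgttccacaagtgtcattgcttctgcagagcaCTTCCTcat
Gp9: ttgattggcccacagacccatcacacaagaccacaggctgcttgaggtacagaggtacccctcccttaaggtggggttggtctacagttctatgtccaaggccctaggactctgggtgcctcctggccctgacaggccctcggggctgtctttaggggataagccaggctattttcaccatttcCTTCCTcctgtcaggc
Itga2b: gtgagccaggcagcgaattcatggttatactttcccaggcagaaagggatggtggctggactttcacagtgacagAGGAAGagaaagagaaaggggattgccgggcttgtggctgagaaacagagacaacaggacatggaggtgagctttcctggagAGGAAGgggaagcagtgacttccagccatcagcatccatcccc

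The ETS hexamer was present on either strand in 6 of the 8 windows, and in 24.5% of 27025 RefSeq promoter windows of the same length. In Nbeal2 it lay 9 to 4 bases before the start on the gene's strand, and in Pf4 the reverse complement lay at the same 9 to 4 bases. In Gp9 it lay 16 to 11 bases before the start, in Selp 64 to 59 bases before it, and in Itga2b it stood at 125 to 120 and at 43 to 38 bases. A GATA hexamer (AGATAA or TGATAA or AGATAG or TGATAG, either strand) was found in 2 of the 8 windows, with 3 matches in Gp1ba and 1 in Gp1bb, and in 21.9% of all windows. The windows of Ppbp and Gp1bb held no ETS hexamer, and that of Ppbp held neither motif. Positions are counted from the RefSeq start. For Itga2b that start, 102469883, lies inside the gene as GENCODE draws it, so the window printed for it is upstream of the RefSeq start only. The matches are letters in a window and do not show binding.

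In Cbx2-/- marrow the 10 genes did not all go in the same direction. Nbeal2, a gene required to form alpha granules, and Selp, which encodes the adhesion protein P-selectin, rose 1.78-fold and 1.92-fold. The other 8 were not called. Among these, the granule chemokine genes Pf4 and Ppbp and the receptor gene Gp9 had means 1.74-fold to 1.83-fold lower, and Vwf a mean 1.25-fold lower. For each integrin gene and each Gp1b gene the means of the genotypes lay within 1.14-fold. Thus 2 of 10 genes were called higher and 0 lower by limma, against 8.8% of all tested genes called higher (1057) and 8.31% called lower (998). Scaled to TPM with haemoglobin genes left out of the sum, 607 genes were called higher and 980 lower. At an unadjusted limma p under 0.05, Selp (0.00350) and Nbeal2 (0.00222) were higher and Pf4 (0.0317) and Ppbp (0.0456) were lower. The adjusted p of Pf4 and Ppbp was 0.115 and 0.145 (limma). An adjusted p this close to the unadjusted one arises where a large share of all tested genes has a small p. That share was not counted, so passing the unadjusted threshold does not set these genes apart. Groups did not overlap for 2 of the 10 genes, both higher, against 21.4% of all tested genes higher and 18.2% lower with no overlap.

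**Figure D1:**
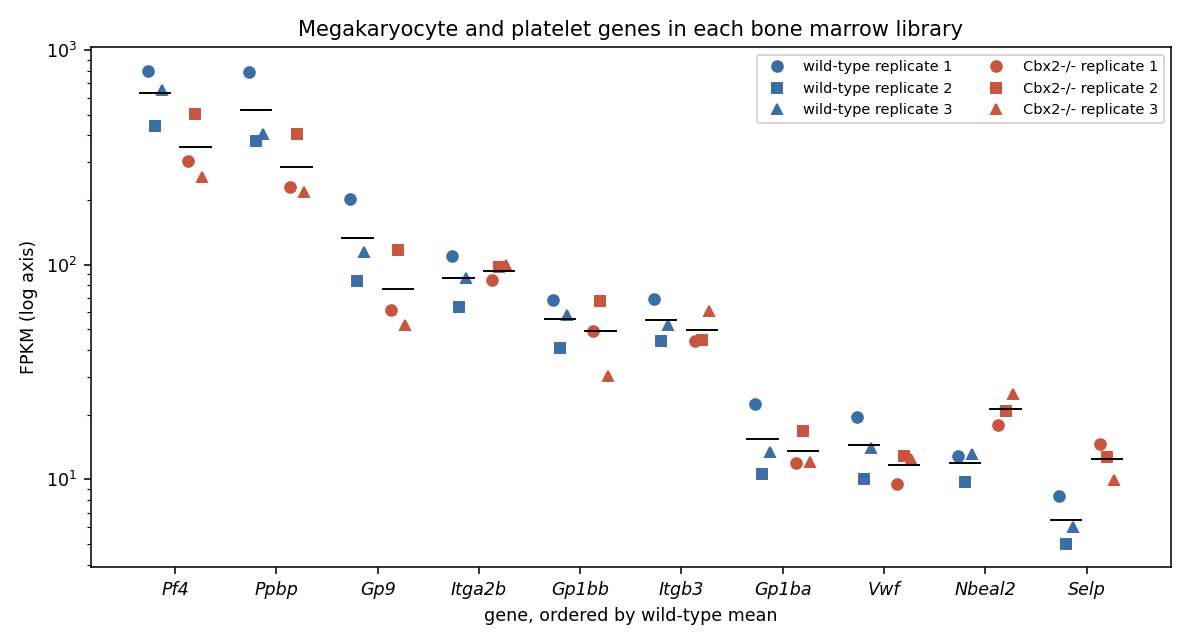
FPKM of the 10 genes in each library, on a log axis, with wild-type in blue, Cbx2-/- in red, 1 marker shape per replicate number and a line at each group mean. Wild-type replicate 2 (squares) is the lowest wild-type point for all 10 genes, and only Selp and Nbeal2 have groups that do not overlap.

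The wild-type levels ran from the granule chemokines down to Selp. Pf4 (630 FPKM) and Ppbp (523 FPKM) ranked 135 and 162 of 12006 tested genes by wild-type mean, and their ranges over libraries overlapped. Gp9 followed at 133 FPKM and Itga2b at 86.6 FPKM, then Gp1bb at 55.8 and Itgb3 at 55.2 FPKM, each overlapping its neighbour in this order. Gp1ba (15.5 FPKM), Vwf (14.5 FPKM) and Nbeal2 (11.9 FPKM) overlapped too, while Selp was lowest at 6.47 FPKM. The breaks in this order, where libraries of neighbouring genes did not overlap, lay between Ppbp and Gp9, between Itgb3 and Gp1ba, and between Nbeal2 and Selp. Overlap across libraries does not mean equal levels. The places of Gp1bb and Selp in this order are uncertain, since their deposited loci overlap other genes. Within each wild-type library Pf4 was above Ppbp, Gp9 above Itga2b, Itga2b above Gp1bb and Vwf above Nbeal2. Gp1bb and Itgb3 changed order between libraries, as did Gp1ba and Vwf.

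Wild-type libraries differed among themselves in all of these genes together. Wild-type replicate 2 was the lowest wild-type library for all 10 genes, and replicate 1 was the highest for 9 of them. The summed FPKM of the 10 genes was 2095, 1084 and 1417 in wild-type replicates 1, 2 and 3, which is 0.291%, 0.164% and 0.202% of all FPKM in the library. In Cbx2-/- replicates 1, 2 and 3 it was 829, 1300.0 and 775 FPKM, or 0.116%, 0.175% and 0.129%. The share of Cbx2-/- replicate 2 lay above that of wild-type replicate 2, so the groups overlapped, and Pf4 and Ppbp had the highest levels in every library.

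Cbx2-/- replicates 1 and 2, the libraries with muscle transcripts, were also left out together. The difference was then 1.01 for Nbeal2 and 0.57 for Selp. With replicate 3 alone for Cbx2-/-, it was -1.26 for Pf4, -1.18 for Ppbp, -1.24 for Gp9 and -0.84 for Gp1bb. For Itga2b it was 0.23, for Itgb3 0.16, for Gp1ba -0.28 and for Vwf -0.16. Since a single Cbx2-/- library remains, no calls are given for these genes. This fit takes the lone library to vary like the wild-type ones, and the part of muscle transcripts in the differences was not tested.

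Nbeal2 (chromosome 9, 110624789 to 110654161, minus strand) encodes a BEACH domain protein without which platelets lack alpha granules. Its FPKM was 12.9, 9.71 and 13.1 in wild-type marrow and 17.9, 20.9 and 24.9 in Cbx2-/- marrow. Every Cbx2-/- library was above every wild-type library. The difference was 0.79 (95% interval 0.38 to 1.19, limma adjusted p = 0.0212), and the two-sided p of the exact permutation test was 0.1, the lowest possible with 3 libraries in each group. The call was lost without wild-type replicate 1, 2 or 3 (limma adjusted p = 0.0653, 0.0902 and 0.0587) and when libraries were scaled without haemoglobin genes (0.0712). Which cells of the marrow gave the Nbeal2 transcripts was not tested.

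Selp (chromosome 1, 164115264 to 164150026, plus strand) encodes P-selectin, which is stored in alpha granules and also in endothelial cells. It was at 8.41, 5.02 and 5.99 FPKM in wild-type and at 14.6, 12.7 and 9.90 FPKM in Cbx2-/- marrow, again with no overlap. The difference was 0.85 (95% interval 0.37 to 1.33, limma adjusted p = 0.0282, exact permutation p = 0.1, two-sided). The call was lost without wild-type replicate 2 or 3 (limma adjusted p = 0.112 and 0.106) and without Cbx2-/- replicate 1 or 2 (0.095 and 0.0563). It was also lost with no filter on low values (0.0604).

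Endothelial transcripts were also higher in Cbx2-/- marrow, but not in the order of libraries seen in Selp. Of 18 tested endothelial markers, 10 rose and 0 fell, with a median difference of 1.03. The summed FPKM of the 19 markers was 230 to 254 in wild-type libraries. In Cbx2-/- replicates 1, 2 and 3 it was 494, 455 and 528, highest in replicate 3, the Cbx2-/- library where Selp was lowest. None of the 19 was at 0 in all libraries. Stab2, a scavenger receptor of sinusoids, rose from 5.76 ± 0.066 to 19.4 ± 0.984 FPKM (SD, n = 3 each). Kdr, the main receptor for vascular growth factor, rose from 5.82 ± 0.307 to 16.1 ± 2.103 FPKM. The part of endothelial cells in the rise of Selp was not tested. The deposited locus of Selp also runs to 164220274 and so covers the next gene F5, and it overlaps the long noncoding gene Gm16548 on the opposite strand, so reads of the 3 genes may not be fully separated. Gm16548, chosen with its values in view, was measured at 4.26 ± 0.467 and 7.27 ± 1.595 FPKM and was called higher (limma adjusted p = 0.0402).

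Vwf, which encodes von Willebrand factor, is made by megakaryocytes and endothelial cells as Selp is, but was not called. It was at 19.5, 10.1 and 14.0 FPKM in wild-type and at 9.53, 12.9 and 12.5 FPKM in Cbx2-/- marrow, with a difference of -0.26 (95% interval -0.81 to 0.28, limma adjusted p = 0.493). Of the Cbx2-/- values, 2 lay inside the wild-type range and 1 just below it. Within a library the ratio of Selp to Vwf was 0.432, 0.498 and 0.427 in wild-type and 1.54, 0.983 and 0.794 in Cbx2-/- marrow. Every Cbx2-/- ratio was above every wild-type ratio. The pairs of genes for this and the other ratios were chosen with the values in view.

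The granule chemokines had the most negative differences of the 10. Pf4 (chromosome 5, 90772435 to 90773383, plus strand), platelet factor 4, was at 797, 441 and 652 FPKM in wild-type and at 305, 503 and 256 FPKM in Cbx2-/- marrow. The groups overlapped, since Cbx2-/- replicate 2 exceeded wild-type replicate 2. The difference was -0.85 (95% interval -1.597 to -0.10, limma adjusted p = 0.115, exact permutation p = 0.2, two-sided). Pf4 was called lower without Cbx2-/- replicate 2 (limma adjusted p = 0.0405) and when libraries were scaled without haemoglobin genes (0.0439).

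Ppbp (chromosome 5, 90768518 to 90770063, plus strand), the pro-platelet basic protein gene next to Pf4, was at 785, 376 and 407 FPKM in wild-type and at 230.0, 408 and 217 FPKM in Cbx2-/- marrow. The difference was -0.85 (95% interval -1.68 to -0.02, limma adjusted p = 0.145). Cbx2-/- replicate 2 was again level with the lower wild-type libraries. The ratio of Pf4 to Ppbp had a mean of 1.26 in wild-type and 1.25 in Cbx2-/- libraries, and the groups overlapped. Pf4 is also transcribed in some macrophages, of whose 11 markers 5 rose and 0 fell. Their summed level was 524 to 611 FPKM in wild-type and 734 to 1140 FPKM in Cbx2-/- libraries, and none was at 0 in all libraries, and the part of macrophages in the level of Pf4 was not tested. Among them, Cd5l rose from 15.9 ± 4.78 to 61.3 ± 18.1 FPKM and Marco from 1.81 ± 1.17 to 5.84 ± 1.59 FPKM (SD, n = 3 each). The call of Marco was lost without wild-type replicate 1 or 3 (limma adjusted p = 0.0821 and 0.0794), without Cbx2-/- replicate 1 (0.0689) and with no filter on low values (0.0508).

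**Figure D2:**
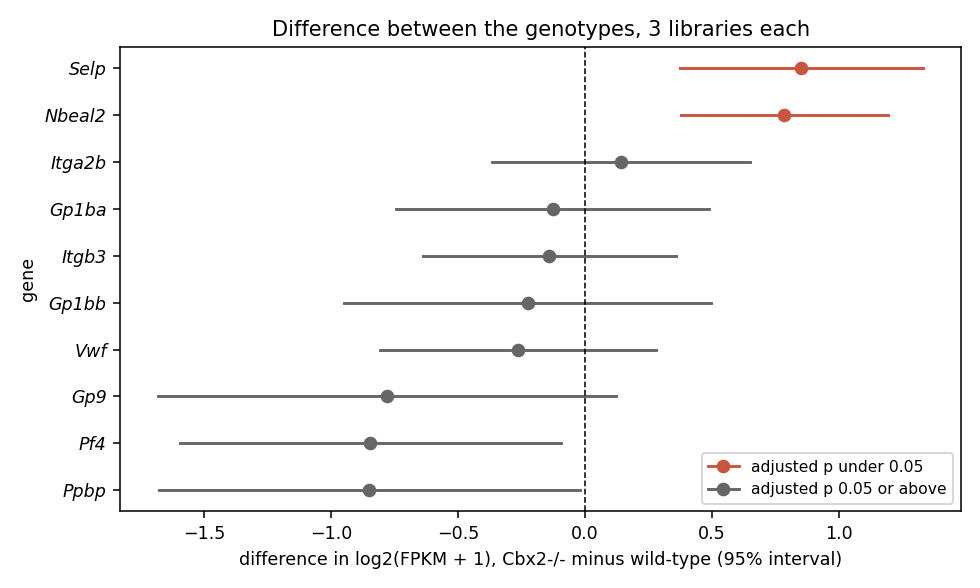
Difference in mean log2(FPKM + 1), Cbx2-/- minus wild-type, for each of the 10 genes (points) with the 95% interval (lines), 3 libraries per genotype. Selp and Nbeal2, in red, were called, and the intervals of Pf4 and Ppbp end just below 0 without passing the adjusted p.

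Genes of the von Willebrand factor receptor had unlike differences in mean, but none was called and their 95% intervals overlapped. Gp9 (chromosome 6, 87778072 to 87779768, plus strand), glycoprotein IX, was at 203, 83.5 and 114 FPKM in wild-type and at 61.7, 116 and 52.3 FPKM in Cbx2-/- marrow (difference -0.78, 95% interval -1.68 to 0.12, limma adjusted p = 0.213). Cbx2-/- replicate 2 lay inside the wild-type range and the other 2 libraries below it. Gp1ba (chromosome 11, 70639122 to 70642036, plus strand), the chain that binds von Willebrand factor, was at 22.3, 10.6 and 13.4 FPKM and at 11.9, 16.8 and 12.01 FPKM (difference -0.13, 95% interval -0.74 to 0.49, limma adjusted p = 0.794). All Cbx2-/- values of Gp1ba lay within the wild-type range. Gp5, which encodes glycoprotein V and was added with its values in view, was at 53.3 ± 15.7 and 41.1 ± 8.35 FPKM (SD, n = 3 each). Its difference was -0.35 (95% interval -0.92 to 0.22, limma adjusted p = 0.382).

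Gp1bb (chromosome 16, 18620317 to 18622403, minus strand), the chain linked to that of Gp1ba, was at 68.6, 40.8 and 58.0 FPKM in wild-type and at 48.9, 68.0 and 30.2 FPKM in Cbx2-/- marrow (difference -0.23, 95% interval -0.95 to 0.50, limma adjusted p = 0.680). Cbx2-/- replicate 3 was the lowest of the 6 libraries. The deposited locus of Gp1bb overlaps Sept5 on the same strand, a septin gene that rose from 24.5 ± 2.12 to 54.7 ± 3.39 FPKM (SD, n = 3 each, limma adjusted p = 0.00277), so the values of this pair are uncertain. The ratio of Gp9 to Gp1ba was 9.07, 7.87 and 8.52 in wild-type and 5.18, 6.91 and 4.36 in Cbx2-/- libraries, with no overlap, while that of Gp1bb to Gp1ba overlapped, with means of 3.75 and 3.55.

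The integrin genes had similar levels in both genotypes. Itga2b (chromosome 11, 102453297 to 102470122, minus strand), the alpha chain of the fibrinogen receptor and also a marker of early progenitors, was at 110, 63.7 and 86.5 FPKM in wild-type and at 84.7, 97.1 and 99.2 FPKM in Cbx2-/- marrow. The difference was 0.14 (95% interval -0.37 to 0.65, limma adjusted p = 0.713). Itgb3 (chromosome 11, 104608000 to 104670476, plus strand), the beta chain, which osteoclasts also express, was at 68.8, 44.2 and 52.6 FPKM and at 44.1, 44.4 and 60.6 FPKM (difference -0.14, 95% interval -0.64 to 0.36, limma adjusted p = 0.712). For both genes the Cbx2-/- libraries lay within or at the edge of the wild-type range. Of 7 tested osteoclast markers, 0 rose and 1 fell, Acp5, from 466 ± 38.0 to 266 ± 42.4 FPKM (SD, n = 3 each). The call of Acp5 was lost without each library but Cbx2-/- replicate 3 (limma adjusted p = 0.0664 to 0.121), with quantile normalization (0.104) and for TPM without haemoglobin genes (0.0537). Nfatc1, an osteoclast transcription factor gene, was at 11.3 ± 0.435 and 14.9 ± 2.22 FPKM (0.117), higher with no overlap. The summed level of the 8 markers was 599.7 to 735 FPKM in wild-type and 332 to 583 FPKM in Cbx2-/- libraries, and the part of osteoclasts in the level of Itgb3 was not tested.

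Levels were also set against Itga2b within each library. This ratio and its reference gene were chosen after the values were seen, and it carries no test. The ratio of Pf4 to Itga2b was 7.28, 6.93 and 7.54 in wild-type and 3.61, 5.18 and 2.58 in Cbx2-/- libraries. The wild-type values were close together although their Pf4 levels differed, and the Cbx2-/- values were all lower. The ratio of Ppbp was 7.16, 5.9 and 4.7 in wild-type (mean 5.92) and 2.72, 4.2 and 2.19 in Cbx2-/- libraries (mean 3.03). That of Gp9 was 1.85, 1.31 and 1.32 (mean 1.49) and 0.728, 1.2 and 0.528 (mean 0.818). For Ppbp and Gp9 the wild-type values spread more than for Pf4, and Cbx2-/- replicate 2 lay close below them. The mean ratio of Vwf was 0.166 in wild-type and 0.124 in Cbx2-/- libraries. Groups did not overlap for Ppbp, Gp9 or Vwf.

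The ratios of Nbeal2 and Selp went the other way. Nbeal2 stood at 0.117, 0.153 and 0.152 of Itga2b in wild-type and at 0.212, 0.215 and 0.251 in Cbx2-/- libraries, and Selp at 0.0768, 0.0789 and 0.0693 against 0.173, 0.130 and 0.0998. Of the 9 genes set against Itga2b, 4 were lower and 2 higher with no overlap, and those of Itgb3, Gp1ba and Gp1bb overlapped. Among the 12005 tested genes besides Itga2b, set against it in this way, 15.3% were lower and 6.91% higher with no overlap. Genes that vary with Itga2b across libraries, as Pf4 did in wild-type, have ratios that spread less. These shares are thus not a like background for the 9 genes.

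**Figure D3:**
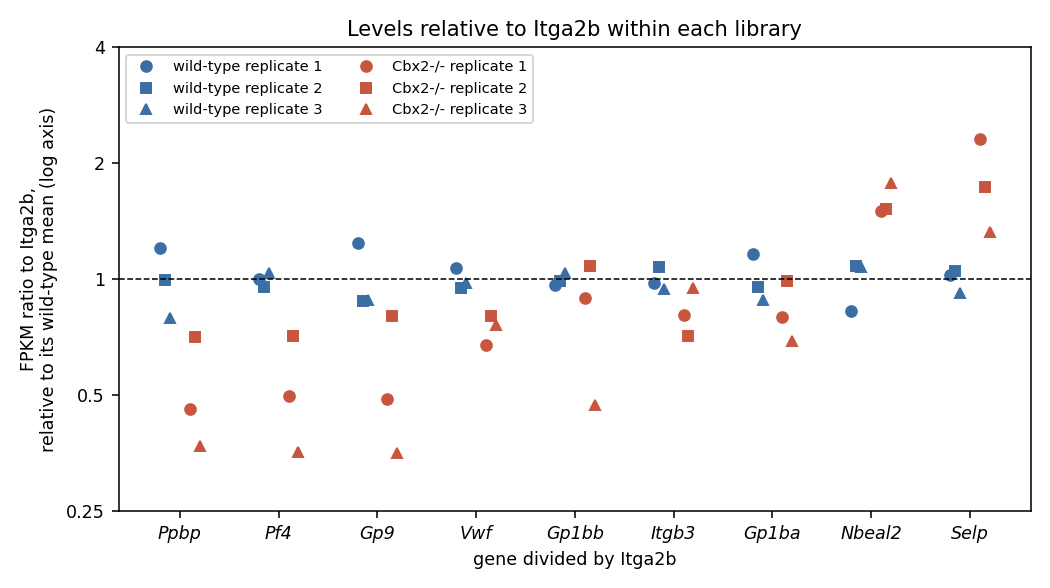
FPKM of 9 genes divided by that of Itga2b in the same library, relative to the mean wild-type ratio of that gene, on a log axis, with wild-type in blue and Cbx2-/- in red. The Cbx2-/- points of Ppbp, Pf4, Gp9 and Vwf lie below the wild-type points, those of Nbeal2 and Selp lie above them, and those of Itgb3, Gp1ba and Gp1bb overlap.

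Another 95 platelet genes in 7 lists of receptors, signalling proteins, granule proteins, cytoskeleton and transcription factors were read beside these. Of 94 tested, 11 rose, 3 fell and 80 did not pass, with a median difference of 0.12 against 0.02 for all tested genes and -0.18 for the 10 genes. The share of all tested genes called was 8.8% higher and 8.31% lower. Groups that did not overlap were found for 28 higher and 6 lower genes of the 94, against 21.4% and 18.2% of all tested genes. For TPM without haemoglobin genes, 8 of the 11 calls higher were lost (limma adjusted p = 0.0527 to 0.161), all but those of Rab27a, Sept5 and Gata2.

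Among 12 partner receptors, 1 rose and 0 fell. Pear1, a platelet contact receptor also made in endothelium, rose from 5.79 ± 0.698 to 10.1 ± 1.30 FPKM (SD, n = 3 each, limma adjusted p = 0.0154), a call lost without wild-type replicate 2 or 3 (0.0759 and 0.0662). Treml1, stored in alpha granules, was at 84.2, 35.3 and 59.6 FPKM in wild-type and at 26.6, 48.0 and 19.3 FPKM in Cbx2-/- marrow, with the order of libraries seen in Pf4 (limma adjusted p = 0.147). Gp6, a collagen receptor gene, had levels of 12.96 ± 6.41 and 8.08 ± 2.75 FPKM (limma adjusted p = 0.279). Fcer1g, its signalling chain, which many myeloid cells also use, was at 380 ± 11.0 and 566 ± 63.2 FPKM (limma adjusted p = 0.0769), and Cd9 was at 170 ± 35.2 and 167 ± 44.2 FPKM.

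Of 11 agonist receptors, F2r, a thrombin receptor that mouse platelets are known to lack and that endothelium uses, rose from 4.06 ± 0.458 to 6.60 ± 1.20 FPKM (SD, n = 3 each, limma adjusted p = 0.0425), and 0 fell. That call was lost without wild-type replicate 1, 2 or 3 (0.161, 0.106 and 0.11) and without Cbx2-/- replicate 2 (0.087). It was also lost for TPM (0.084), with median-ratio scaling (0.062) and with no filter on low values (0.0837). The thrombin receptor gene of mouse platelets, F2rl3, was at 11.8 ± 5.67 and 7.31 ± 1.66 FPKM (limma adjusted p = 0.252), and the thromboxane receptor gene Tbxa2r at 12.4 ± 3.04 and 7.56 ± 1.43 FPKM (limma adjusted p = 0.0768). Adra2a, which encodes an adrenaline receptor, had levels of 0.739 ± 0.300 and 1.36 ± 0.0953 FPKM (limma adjusted p = 0.0957), and P2rx1, an ATP-gated channel gene, stood at 17.5 ± 6.03 and 14.8 ± 3.57 FPKM (0.663).

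Of 16 activation signalling genes, 1 rose and 0 fell. Ptgs1, the cyclooxygenase that starts thromboxane synthesis, rose from 13.9 ± 0.871 to 21.9 ± 1.59 FPKM (SD, n = 3 each, limma adjusted p = 0.0175), a call lost without wild-type replicate 1, 2 or 3 (0.0618, 0.0856 and 0.077). Syk, a kinase shared with B cells, was at 71.1 ± 5.22 and 44.6 ± 11.2 FPKM (limma adjusted p = 0.0509), and the part of B cells in its level was not tested. The 9 B cell markers all fell, with a summed level of 632 to 855 FPKM in wild-type and 103 to 208 FPKM in Cbx2-/- libraries. Among these, the surrogate light chain genes Vpreb1 and Igll1 fell, Vpreb1 from 43.9 ± 7.47 to 0.619 ± 0.404 FPKM and Igll1 from 71.9 ± 11.0 to 1.29 ± 0.966 FPKM. Orai1, a calcium channel gene, had levels of 21.2 ± 1.75 and 32.8 ± 6.74 FPKM (limma adjusted p = 0.0585) and its sensor gene Stim1 stood at 15.4 ± 2.02 and 18.8 ± 0.707 FPKM (0.213), and the integrin activators Fermt3 and Rap1b were at 153 and 171 FPKM and at 139.9 and 145 FPKM.

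Of the 11 other granule cargo genes, 1 rose and 1 fell. Sparc, a collagen-binding protein of alpha granules that osteoblasts secrete in bulk, fell from 1656 ± 276 to 384 ± 117 FPKM (SD, n = 3 each, limma adjusted p = 0.00314), and was lower in 3 of 3 Cbx2-/- libraries. F13a1, the coagulation factor XIII chain that macrophages also make, rose from 32.2 ± 7.17 to 75.1 ± 26.6 FPKM (limma adjusted p = 0.0319). That call was lost without wild-type replicate 1, 2 or 3 (0.124, 0.0588 and 0.121) and without Cbx2-/- replicate 1 (0.0997), with quantile normalization (0.0535) and with no filter on low values (0.0635). F5, coagulation factor V, whose deposited locus overlaps that of Selp, was at 7.76 ± 1.74 and 12.5 ± 4.14 FPKM (limma adjusted p = 0.137). The granule proteoglycan gene Srgn was at 279 ± 20.4 and 403 ± 63.0 FPKM (0.113) and Tgfb1 at 108 ± 12.3 and 107 ± 14.8 FPKM (0.960). Which cells gave these transcripts was not tested.

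In granule biogenesis 2 of the 18 genes other than Nbeal2 rose and 0 fell. Rab27a, a small GTPase of granule docking, rose from 18.7 ± 2.09 to 35.2 ± 1.72 FPKM (SD, n = 3 each, limma adjusted p = 0.00669), and Unc13d, its partner in secretion, from 20.5 ± 2.22 to 30.9 ± 2.98 FPKM (limma adjusted p = 0.0369). Both are also used by neutrophils, of whose 12 markers 2 rose and 0 fell, with a median difference of 0.81. Those were Lcn2, from 1677 ± 94.9 to 3666 ± 871 FPKM, and Cxcr2, from 21.9 ± 3.51 to 41.2 ± 9.89 FPKM, and the part of neutrophils was not tested. The call of Lcn2 was lost without wild-type replicate 1, 2 or 3 or Cbx2-/- replicate 1 (limma adjusted p = 0.0994, 0.121, 0.11 and 0.101) and with no filter on low values (0.104). That of Cxcr2 was lost without wild-type replicate 1, 2 or 3 (0.0797, 0.0677 and 0.106), with quantile normalization (0.0511) and for TPM without haemoglobin genes (0.0901). The call of Rab27a held without any 1 library (limma adjusted p at most 0.0393), and that of Unc13d was lost without each library but Cbx2-/- replicate 3 (0.0900 to 0.154). The platelet form Rab27b, which the naming rule did not pick and which was added with its values in view, stood at 4.14 ± 1.501 and 3.23 ± 0.669 FPKM (limma adjusted p = 0.491). The alpha granule sorting genes Vps33b and Vipas39, named in the same way, were at 7.37 and 8.40 FPKM and at 11.0 and 12.6 FPKM (limma adjusted p = 0.497 and 0.361), with no overlap for Vipas39. Hps3 and Lyst, whose loss impairs dense granules, were at 7.11 ± 0.202 and 12.1 ± 3.80 FPKM (0.0572) and at 4.27 ± 0.618 and 9.05 ± 4.31 FPKM (0.0698). Among the most abundant genes of the list, Gfi1b, a repressor also active in red cell precursors, was at 64.4 ± 11.2 and 49.2 ± 23.7 FPKM (0.385) and Dtnbp1 at 32.3 ± 2.49 and 37.9 ± 5.32 FPKM (0.389).

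Of 14 genes of the proplatelet cytoskeleton, 3 rose and 0 fell. They were Sept5, described above, the actin linker gene Flna, from 95.2 ± 14.0 to 169 ± 23.0 FPKM (SD, n = 3 each, limma adjusted p = 0.0237), and the alpha-actinin gene Actn1, from 35.3 ± 5.21 to 55.9 ± 7.02 FPKM (limma adjusted p = 0.0377). The call of Flna was lost without wild-type replicate 1, 2 or 3 or Cbx2-/- replicate 1 (0.0587, 0.114, 0.0968 and 0.0806), and that of Actn1 without each library but Cbx2-/- replicate 3 (0.0655 to 0.145) and with quantile normalization (0.0542). These genes are widely expressed. Tubb1, the tubulin restricted to megakaryocytes and likewise added with its values in view, was at 103, 37.8 and 60.7 FPKM in wild-type and at 34.0, 51.0 and 49.6 FPKM in Cbx2-/- marrow (adjusted p = 0.393, limma), with wild-type replicate 1 the highest, as for Pf4. The actin regulator gene Was was at 36.1 ± 3.81 and 48.3 ± 4.83 FPKM (0.113), Tuba4a at 286 ± 30.4 and 283 ± 89.4 FPKM (0.901) and Cdc42 at 165 ± 10.4 and 191 ± 19.2 FPKM (0.464).

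Among 13 tested transcription factors, 2 rose and 2 fell. Tal1 fell from 71.4 ± 13.4 to 33.0 ± 9.23 FPKM (SD, n = 3 each, limma adjusted p = 0.0194) and Zfpm1, the cofactor of Gata1, from 148 ± 32.0 to 68.1 ± 31.2 FPKM (limma adjusted p = 0.0493). Gata2, active in progenitors and mast cells, rose from 5.29 ± 0.278 to 9.79 ± 0.716 FPKM (limma adjusted p = 0.00600), and the ETS factor gene Etv6 from 7.29 ± 0.575 to 11.5 ± 1.05 FPKM (limma adjusted p = 0.0195). Gata1 was at 109, 88.4 and 101 FPKM in wild-type and at 56.4, 75.4 and 26.0 FPKM in Cbx2-/- marrow, with no overlap (difference -1.03, 95% interval -1.85 to -0.21, limma adjusted p = 0.0859). Nfe2 was at 214 ± 23.9 and 142 ± 11.9 FPKM (limma adjusted p = 0.0551), also with no overlap.

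Tal1, Zfpm1, Gata1 and Nfe2 also serve red cell precursors, and erythroid markers had lower means in Cbx2-/- marrow too. Of 14 erythroid markers, 12 fell and 0 rose, with a median difference of -1.54. Trim10 fell from 186 ± 33.6 to 40.9 ± 8.21 FPKM (SD, n = 3 each). The part of red cell precursors in these falls was not tested. The call of Tal1 was lost without wild-type replicate 1 or 2 or Cbx2-/- replicate 1 (0.0873, 0.0826 and 0.0599), that of Zfpm1 without wild-type replicate 1, 2 or 3 or Cbx2-/- replicate 1 (0.171, 0.122, 0.112 and 0.112), and that of Etv6 without the same 4 libraries (0.0639, 0.0791, 0.0867 and 0.070). The call of Zfpm1 was also lost with a pseudocount of 0.1 FPKM (0.0511), with robust empirical Bayes (0.052) and with no filter on low values (0.0912). Gata1 was called lower without Cbx2-/- replicate 2 or 3 (0.0281 and 0.0230), and Gata1 and Nfe2 were called lower when scaled to TPM (0.0451 and 0.0280). The call of Gata2 held without any 1 library (at most 0.0393). Kit, a progenitor and mast cell receptor gene, rose from 8.01 ± 0.804 to 16.4 ± 3.06 FPKM, the 1 of 7 tested stem and progenitor markers that was called, and Hlf was at 0.701 ± 0.128 and 1.27 ± 0.218 FPKM (0.0913).

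**Figure D4:**
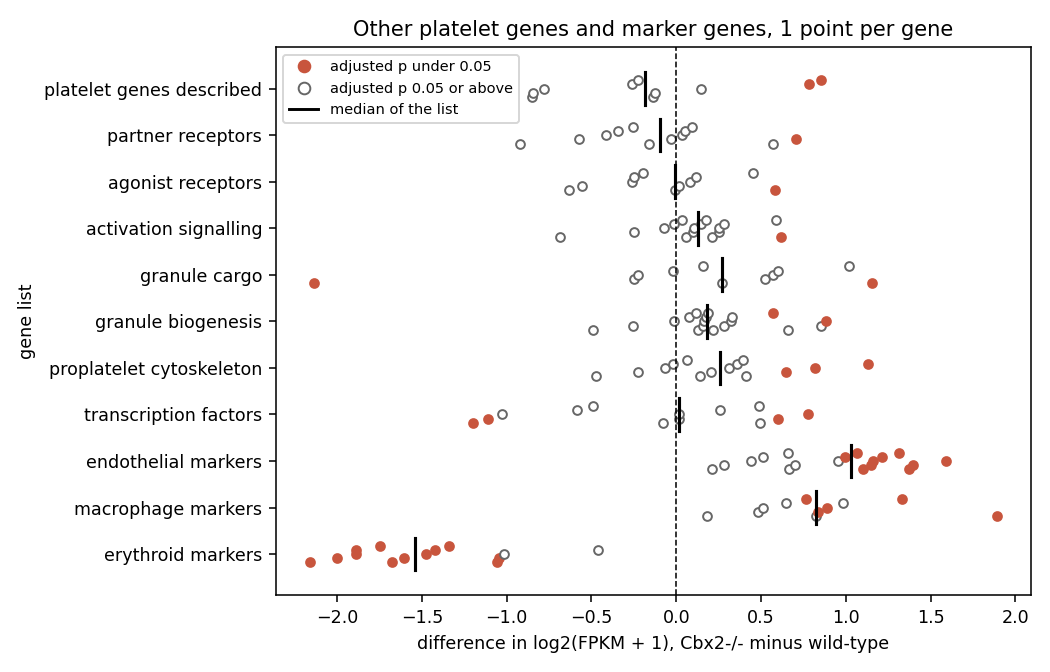
Difference in mean log2(FPKM + 1), Cbx2-/- minus wild-type, with 1 point per tested gene, filled where the adjusted p was under 0.05, and a bar at the median of each list. The 10 genes are left out of the other lists. Platelet lists centre between -0.18 and 0.27, while endothelial and macrophage markers lie to the right and erythroid markers to the left.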

How the data were processed

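RNA-seq of bone marrow covered 3 wild-type and 3 Cbx2-/- mice, 1 stranded 50-base single-end library each, per the labels' protocols. The authors deposited 1 table of FPKM values for 22838 genes; FastQC 0.11.5, TopHat2 2.1.0, Cufflinks 2.2.1 and mm10 are named in the submitters' processing notes. No source used here gives the strand setting. The deposited confidence limits were not used here. Read totals were not used here, and relative depth came from the commonest ratio of values under 0.15 FPKM (877 to 1134 genes per library, each set against wild-type replicate 1).

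Values were taken as log2(FPKM + 1), which understates changes of low genes. Genes reaching 1 FPKM in 3 or more libraries were tested with limma 3.58.1 (R 4.3.3, trend, two-sided) and Benjamini-Hochberg adjustment over 12006 genes, threshold 0.05; the code was tested on simulated data. Figures used matplotlib 3.10.9. The genes and lists were chosen with earlier results of these data known. Named genes were the 10 genes, Cbx2, Gata1, up to 4 genes per platelet list with the lowest adjusted p and up to 2 uncalled ones with the highest mean, and 2 per marker list; 2 genes that the rule picked are not reported here. Coordinates are from the GENCODE annotation of GRCm38 (mm10). Tried alternatives were other pseudocounts, filters, scalings and limma settings, a replicate block, and libraries left out.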

Additional observations from a re-analysis of the deposited data

How the results depend on the processing

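Under 18 alternatives, 65 named genes gave 990 values with the same direction and side of the threshold, 55 that newly passed it, 98 that no longer passed and 21 of the opposite sign. The 990 include uncalled genes that stayed uncalled, and only called genes could lose a call. The cause of the changes was not tested. No scaling moved the median of all tested genes by 0.1 on the log2 scale. Over all tested genes, 1057 calls higher became 607 for TPM without haemoglobin genes, 634 with the replicate block and 2047 without both Cbx2-/- libraries with muscle transcripts, and 367 to 2069 with 1 library left out. The 998 calls lower became 2714 without both, and 475 to 1719 with 1 left out.

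Of the 10 genes, 2 were called higher, 1 with no filter on low values, 1 for TPM without haemoglobin genes, and 0 to 2 with 1 library left out. The 0 called lower became 1 for TPM without haemoglobin genes, and 0 to 1 with 1 left out. Without both Cbx2-/- libraries with muscle transcripts, the differences of Pf4, Ppbp, Gp9 and Gp1bb were more negative, as given above. That fit keeps 1 Cbx2-/- library, so its calls among platelet genes are not counted. Of the other platelet genes, 11 called higher became 6 for TPM without haemoglobin genes, 4 with the replicate block, 19 without both libraries, and 3 to 22 with 1 left out. The 3 called lower became 5 for TPM with or without haemoglobin genes and for limma without trend, 9 without both, and 1 to 6 with 1 left out.

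Opposite signs were found only for genes that were not called. With 1 library left out, the difference ran from -0.06 to 0.33 for Itga2b, -0.29 to 0.03 for Itgb3, -0.35 to 0.16 for Gp1ba, -0.50 to 0.08 for Gp1bb, -0.23 to 0.12 for Cd9, -0.42 to 0.05 for P2rx1, -0.03 to 0.15 for Rap1b, -0.12 to 0.10 for Tgfb1 and -0.23 to 0.23 for Tuba4a. Without both libraries it was 0.16 for Itgb3, -0.04 for Fermt3 and -0.28 for Tnnt3. With quantile normalization it was 0.05 for Cd9, 0.11 for Tgfb1 and 0.04 for Tuba4a, and for TPM it was 0.01 for Tgfb1.

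Libraries with the same replicate number did not pair: deviations from the group means correlated at 0.194, -0.179 and -0.103 for numbers 1, 2 and 3, and not every library correlated best with its own number. Fits with 1 library left out kept the genes of the 6-library filter.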
